A study of Mus musculus with 6 samples.

Results

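The proteasome genes of mouse liver were compared between wild-type (WT) and *Sirt7* knockout (*Sirt7* KO) mice. They were taken by name, as every protein_coding gene of GENCODE M21 (GRCm38) whose symbol starts with Psma, Psmb, Psmc, Psmd, Psme, Psmf or Psmg and a digit, leaving out *Psmb8* and *Psmb9*. This gave 48 of 54115 genes, of which 46 had enough reads to be tested among 12524 genes in all. The 48 genes lie on 16 chromosomes, with 10 on chromosome 11 and 6 each on chromosomes 2 and 14. By role they are 8 genes of the 20S alpha ring, 7 of the beta ring, 2 further beta subunits (*Psmb10* and *Psmb11*), 6 ATPases and 11 other subunits of the 19S cap, 6 activators and inhibitors, and 7 assembly chaperones. The remaining gene, *Psmc3ip*, matches by its symbol but encodes a recombination factor of meiosis and no part of the proteasome.

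RNA-seq was done on whole liver of 3 WT and 3 *Sirt7* KO males, all 24 months old and fasted for 16 h before collection. The knockout of *Sirt7*, a sirtuin deacylase, is carried in the germline and so is not limited to the liver, and both genotypes came as littermates from heterozygous parents on a C57BL/6J background. The libraries were made from 1 ng of RNA each with a full-length cDNA kit, and 9994860 to 13424776 reads per mouse were assigned to transcripts. The labels name the mice as biological replicates, 1 to 3 in each genotype.

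The proteasome is the main protease of the cytosol and nucleus for proteins tagged with ubiquitin. Its 20S core is a barrel of alpha rings, which gate the entrance, around beta rings, which hold the catalytic sites of *Psmb5*, *Psmb6* and *Psmb7*, and the 19S cap binds, unfolds and feeds in the substrates. Its genes are known to be raised together by the transcription factor NRF1 (*Nfe2l1*) when proteolysis falls short, while interferon replaces the catalytic subunits by *Psmb8*, *Psmb9* and *Psmb10* to form the immunoproteasome.

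*Sirt7* itself had 55.2, 45.5 and 47.3 CPM (counts per 1000000 reads, with library sizes scaled by TMM) in the WT mice and 28.6, 41.8 and 40.8 CPM in the KO mice. The genotypes did not overlap, but reads of the locus remained in every KO liver. The log2 fold change was −0.41 (SE 0.18, n = 3 and 3), and with the average transcript length as an offset (DESeq2) it turned to 0.81, so gene-level reads do not by themselves verify the labels. The tissue matched its label, with 50166 to 64074 CPM summed over 8 hepatocyte markers. Summed markers of other cells overlapped between genotypes: 7 Kupffer cell and macrophage markers came to 49.96, 54.7 and 154 CPM in WT and 133, 48.2 and 92.8 CPM in KO, and 8 lymphocyte markers, of which 2 could be tested, to at most 8.38 CPM. Endothelial markers (6 genes) summed to 67.4 to 88.2 CPM in WT and 72.1 to 103 CPM in KO, stellate cell markers (6 genes) to 163 to 208 and 134 to 210 CPM, and cholangiocyte markers (5 genes) to 47.3 to 72.7 and 53.4 to 71.0 CPM. None of these genes was at 0 reads in all 6 mice.

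Loss of *Sirt7* changed no proteasome gene past the test. By edgeR's quasi-likelihood test, 0 of 46 genes had an unadjusted p under 0.05 in either direction, where 6.54% of all genes tested were higher and 4.78% lower at that level. Likewise, 0 of 46 passed an adjusted p under 0.05 with a fold change over 1.5, as did 0.00798% of all genes, and the smallest Benjamini-Hochberg adjusted p of edgeR was 0.49, for *Psma7*. DESeq2, run without the filter on 27881 genes that held all 48, also gave 0 at an unadjusted p under 0.05. Of the 27881 genes, 3.20% were higher and 1.96% lower. With length offsets it gave 1 of 48 higher and 1 lower (against 3.15% and 2.22% of the 27881 genes). Scaling to total counts, which moved the median of all genes to −0.11, put 6 of 46 genes lower at that level, beside 7.93% of all genes. The measurements were tight, with a median within-genotype SD of 0.15 on the log2 scale against 0.28 over all genes tested. As a result, the 95% interval of the fold change lay within 1.5-fold in both directions for 35 of 46 genes, against 24.5% of all genes.

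Within these bounds, the 20S core genes lay slightly lower in the KO livers. Of 14 genes for the standard rings (*Psma1* to *Psma7* and *Psmb1* to *Psmb7*), 13 had a log2 fold change below 0, and the median of the 14 was −0.19, which is 12.4% lower. This count was added once the data had been seen. The other 32 tested genes split into 16 below and 16 above 0 with a median of −0.01, and the 17 cap genes into 11 and 6 with a median of −0.07. The cap median turned to 0.0044 without WT replicate 2, 0.0035 without KO replicate 1 and 0.012 with length offsets, and was −0.15 without KO replicate 2. Over all 46 genes, 29 were below 0 (63.0%, against 50.7% of all genes tested), with a median of −0.09 against −0.01. The genotypes did not overlap, with all KO mice lower, in 7 of 46 genes (15.2%, against 8.09% of all genes), and with all KO mice higher in 0 (against 8.74%). The 7 genes were *Psma2*, *Psma4*, *Psma6*, *Psma7*, *Psmb4*, *Psmb5* and *Psmd12*. With transcript length offsets (DESeq2, no filter) the median of all 48 genes was −0.02, level with −0.02 over 27881 genes, and 12 of 14 ring genes were below 0 with a median of −0.16. These genes vary together across the same 6 livers, so the counts do not come from independent measurements, and no test of the group was made.

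**Figure D1:**
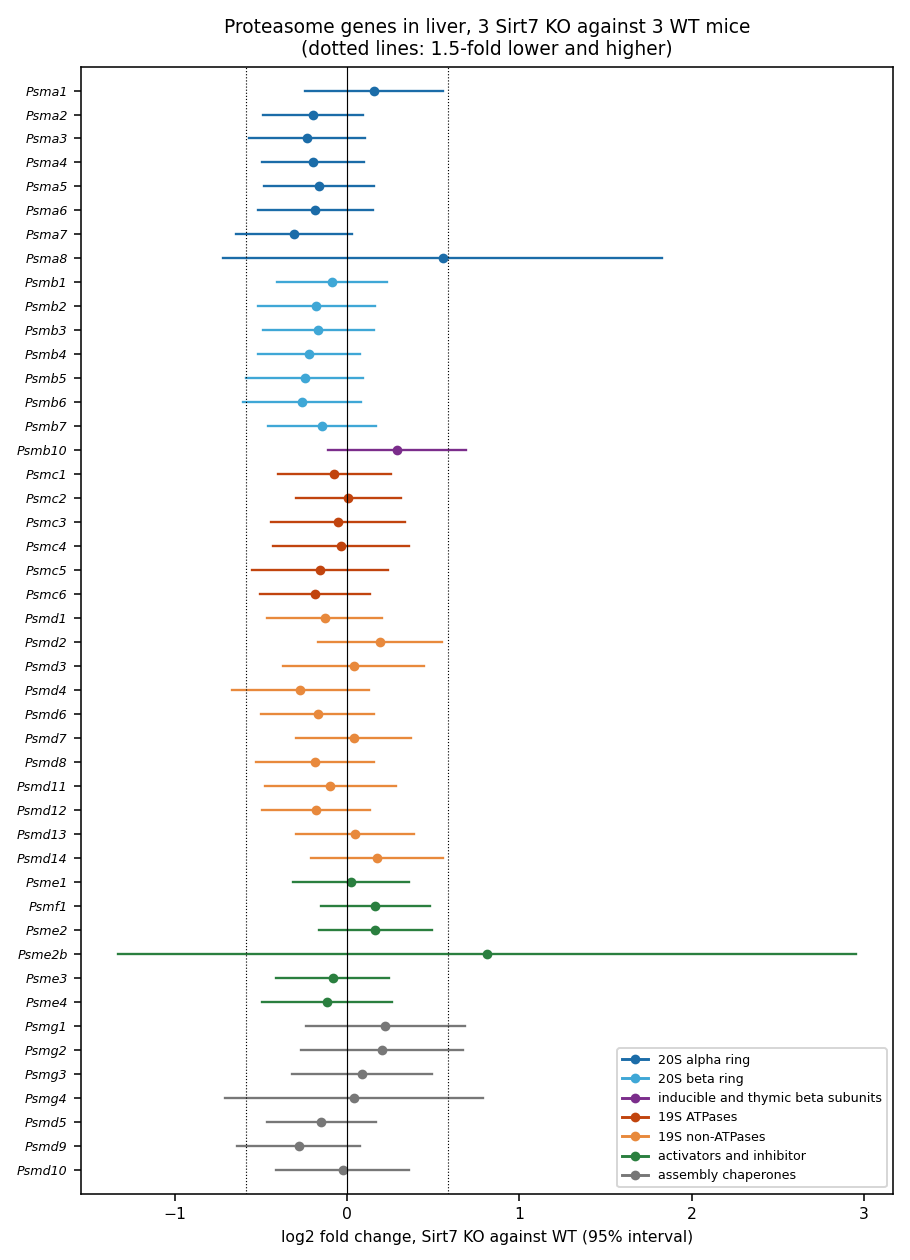
The log2 fold change of *Sirt7* KO against WT livers (points) with its 95% interval (bars) for the 46 proteasome genes tested, colored by role, where dotted lines mark 1.5-fold in each direction. All 46 intervals include 0, and 13 of the 14 standard 20S ring genes lie left of 0, a count made once the data had been seen.

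Single mice stood out in this pattern. Set against the mean over the 6 livers, the median over the 14 ring genes was 0.03, 0.20 and −0.02 on the log2 scale in WT and −0.18, −0.02 and −0.10 in KO, so that WT replicate 3 and KO replicate 2 were nearly level. WT replicate 2 had the highest value of all mice in 11 of 14 ring genes and in 11 of 17 cap genes, and KO replicate 1 had the lowest value in 11 of 14 ring genes, including all 7 of the beta ring. The cap genes overlapped between genotypes, with medians of −0.04, 0.23 and −0.10 in WT and −0.15, 0.10 and −0.07 in KO. Without KO replicate 1 the median over all 46 genes was −0.04, without WT replicate 2 it was −0.05, and without KO replicate 2 it was −0.16. KO replicate 1 also had the highest share of reads from the mitochondrial genome (3.17%, against 1.65% to 2.67% in the other mice) and the second-highest sum of Kupffer cell markers, and their part in the result was not tested. In bulk liver, a change in the cells present and a change in RNA per cell cannot be told apart.

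**Figure D2:**
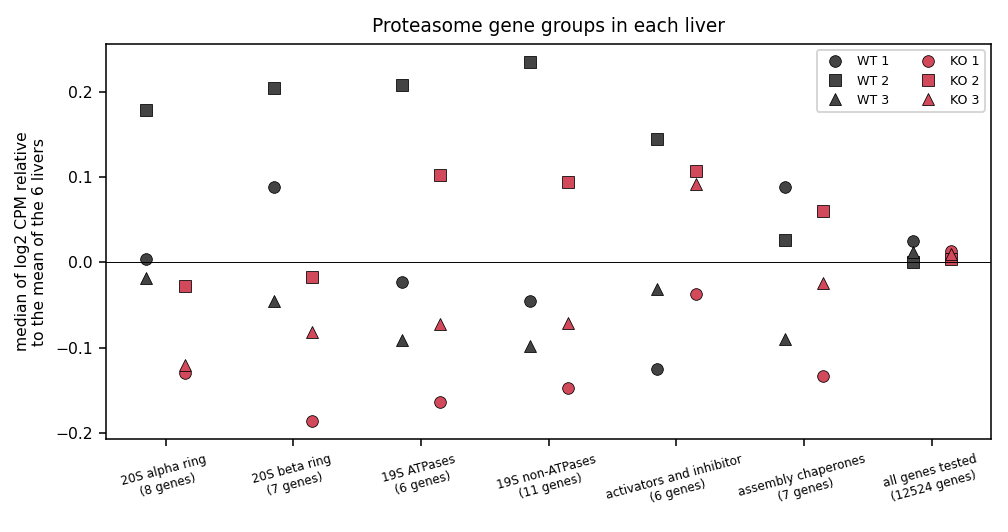
The median log2 CPM of each gene group in each liver, relative to the mean of the 6 livers, with WT mice in grey and *Sirt7* KO mice in red and the replicate number given by the symbol. WT replicate 2 lies highest in the rings and the cap, KO replicate 1 lies lowest there, and the median over all 12524 genes stays near 0 in every liver.

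In the alpha ring, which opens and closes the way into the barrel, *Psma7* had 221, 230 and 186 CPM in WT and 155, 185 and 175 CPM in KO. Every KO mouse lay below every WT mouse, by a small margin between WT replicate 3 and KO replicate 2. Its log2 fold change of −0.31 (SE 0.15) was the most negative of all 46 genes. *Psma2* had 137, 149 and 142 CPM in WT and 125, 127 and 121 CPM in KO (log2 fold change −0.20, SE 0.13). *Psma4* had 112, 108 and 110 CPM in WT and 91.7, 104 and 92.1 CPM in KO (−0.20, SE 0.13). For both genes the genotypes were separate, though KO replicate 2 came close to the lowest WT mouse in *Psma4*. *Psma6* had 146.5, 181.0 and 147.1 CPM in WT and 126.9, 146.3 and 144.7 CPM in KO (−0.18, SE 0.15), where KO replicate 2 came within 1 CPM of the lowest WT mouse. Without WT replicate 2 the value of *Psma6* was −0.074, and without KO replicate 1 it was −0.12. The exact two-sided permutation p of each of these 4 genes was 0.1, the smallest that 3 mice against 3 can give. *Psma1*, named because it was the exception among the ring genes once values were seen, had a log2 fold change of 0.16 (SE 0.18). *Psma8*, a testis-specific alpha subunit, had 12, 11 and 14 reads in WT and 23, 5 and 19 reads in KO, so its log2 fold change of 0.55 (SE 0.56) was not informative.

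*Psma3* was singled out after its values were seen, because part of its sequence is shared with a pseudogene that received reads. *Gm13835*, at bases 31141979 to 31142663 of chromosome 6, holds 16.2% of the 31-base words of *Psma3* transcripts. The quantifier assigned it 0, 0 and 104 reads in WT and 0, 388 and 145 reads in KO, in the same 2 KO livers in which *Psma3* was lowest. *Psma3* alone had 193, 219 and 212 CPM in WT and 203, 163 and 166 CPM in KO (log2 fold change −0.23, SE 0.15). With the pseudogene's reads added it had 193, 219 and 220 CPM in WT and 203, 204 and 180 CPM in KO (−0.11, SE 0.14), so the size of its difference depends on where these reads were placed. With protein_coding transcripts alone it was −0.76 (SE 0.36), and without KO replicate 1 it was −0.34 (SE 0.14). Among the transcripts of *Psma3*, on average 23.6% of its reads went to protein_coding transcripts and 42.2% to a single isoform annotated for nonsense-mediated decay.

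**Figure D3:**
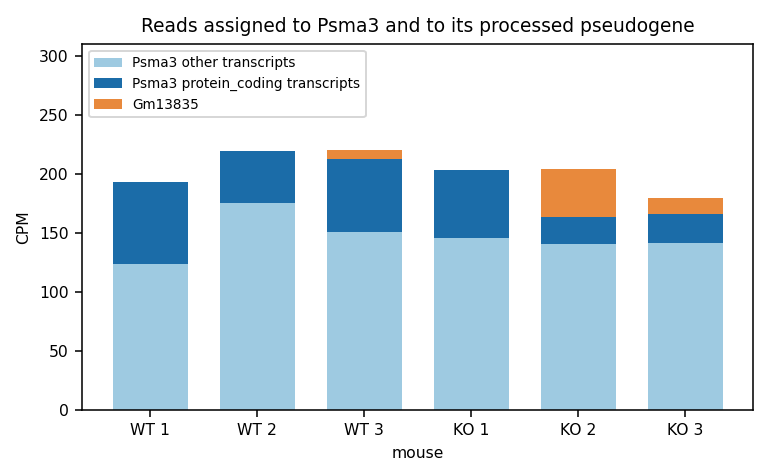
CPM per mouse assigned to *Psma3* transcripts annotated as protein_coding (dark blue), to its other transcripts (light blue) and to the pseudogene *Gm13835* (orange). The pseudogene received reads in WT replicate 3 and KO replicates 2 and 3, and the summed height ranges from 180 to 220 CPM over the 6 mice.

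The beta ring carries the proteolytic sites, and all 7 of its genes had a negative log2 fold change, from −0.09 for *Psmb1* to −0.26 for *Psmb6*. *Psmb5*, which encodes the chymotrypsin-like site, had 133, 173 and 137 CPM in WT and 119, 127 and 128 CPM in KO. The KO mice were close to each other and below all WT mice, of which replicate 2 stood apart. The fold change was 0.84 (95% interval 0.67 to 1.07), which on the log2 scale is −0.25, and −0.12 without WT replicate 2. *Psmb6*, for the caspase-like site, had 232, 259 and 195.4 CPM in WT and 181, 196.5 and 194.6 CPM in KO, so that WT replicate 3 lay among the KO mice (fold change 0.83, interval 0.66 to 1.06). *Psmb7*, for the trypsin-like site, had 80.44, 78.48 and 80.03 CPM in WT and 64.01, 79.79 and 72.35 CPM in KO, where KO replicate 2 was within the WT range (fold change 0.90, interval 0.73 to 1.12). On the log2 scale *Psmb6* moved from −0.26 to −0.16 without WT replicate 2, and *Psmb7* from −0.14 to −0.065 without KO replicate 1 and −0.22 without KO replicate 2. *Psmb4*, a beta subunit without a catalytic site, had 95.2, 99.5 and 86.8 CPM in WT and 78.2, 79.0 and 84.1 CPM in KO, without overlap. Its log2 fold change of −0.22 (SE 0.13) turned to 0.089 with transcript length offsets in DESeq2. On average 72.4% of its reads went to its protein_coding transcript and the rest to other isoforms.

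Promoters were searched for the core of the antioxidant response element to which NRF1 and NRF2 bind, TGACNNNGC on either strand, in 300 bases around each start (250 before and 50 after, RefSeq, GRCm38.p6). Of the 48 genes 40 had a promoter there, and 6 of them (15%) held the motif, against 14.0% of all genes and 12.4% of all promoters in that collection. The CCAAT box was in 14 of 40 (35.0%, against 41.1% of all genes). The 6 promoters with the response element core are shown because they include 2 catalytic subunits, and the match is in capitals, read 5′ to 3′ along the gene.
*Psmb5*, chr14:54617946-54618245, minus strand: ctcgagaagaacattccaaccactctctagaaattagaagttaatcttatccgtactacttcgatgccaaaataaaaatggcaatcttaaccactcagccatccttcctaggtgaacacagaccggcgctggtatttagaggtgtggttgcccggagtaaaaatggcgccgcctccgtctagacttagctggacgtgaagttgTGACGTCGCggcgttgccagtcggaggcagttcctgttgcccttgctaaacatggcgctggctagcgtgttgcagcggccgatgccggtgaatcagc
*Psmb6*, chr11:70525107-70525406, plus strand: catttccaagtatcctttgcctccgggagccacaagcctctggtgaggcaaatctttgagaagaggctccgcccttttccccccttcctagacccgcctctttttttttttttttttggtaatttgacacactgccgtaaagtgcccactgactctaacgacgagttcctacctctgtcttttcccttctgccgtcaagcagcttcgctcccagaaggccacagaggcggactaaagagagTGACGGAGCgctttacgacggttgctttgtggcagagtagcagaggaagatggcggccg
*Psmc6*, chr14:45329574-45329873, plus strand: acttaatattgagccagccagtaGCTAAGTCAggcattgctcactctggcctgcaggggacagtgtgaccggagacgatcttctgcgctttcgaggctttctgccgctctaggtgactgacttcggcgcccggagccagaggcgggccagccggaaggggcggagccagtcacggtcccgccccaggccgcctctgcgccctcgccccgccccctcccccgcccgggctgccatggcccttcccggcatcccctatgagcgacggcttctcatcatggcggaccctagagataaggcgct
*Psmd12*, chr11:107479278-107479577, plus strand: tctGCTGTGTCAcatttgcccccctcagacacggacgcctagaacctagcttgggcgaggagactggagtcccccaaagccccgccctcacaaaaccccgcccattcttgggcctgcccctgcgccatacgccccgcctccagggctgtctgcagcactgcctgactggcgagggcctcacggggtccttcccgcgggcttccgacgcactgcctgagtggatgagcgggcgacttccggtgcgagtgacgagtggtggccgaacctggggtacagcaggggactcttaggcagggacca
*Psmd9*, chr5:123227940-123228239, plus strand: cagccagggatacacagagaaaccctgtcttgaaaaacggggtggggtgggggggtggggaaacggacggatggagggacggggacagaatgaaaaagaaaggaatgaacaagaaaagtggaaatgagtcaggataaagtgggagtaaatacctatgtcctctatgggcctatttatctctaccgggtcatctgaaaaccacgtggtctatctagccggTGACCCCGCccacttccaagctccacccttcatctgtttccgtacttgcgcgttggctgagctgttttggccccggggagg
*Psme4*, chr11:30771525-30771824, plus strand: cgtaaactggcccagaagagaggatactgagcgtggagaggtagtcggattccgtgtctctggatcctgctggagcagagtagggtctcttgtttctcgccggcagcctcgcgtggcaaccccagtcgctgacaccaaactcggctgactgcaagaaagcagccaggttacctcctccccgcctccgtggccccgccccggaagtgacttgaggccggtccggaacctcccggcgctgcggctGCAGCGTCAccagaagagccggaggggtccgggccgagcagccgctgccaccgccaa
The match began 47 bases before the start in *Psmb5*, 9 in *Psmb6*, 31 in *Psmd9* and 7 in *Psme4*, and 227 and 247 bases before it in *Psmc6* and *Psmd12*, on the opposite strand in *Psmc6*, *Psmd12* and *Psme4*. All 6 genes had log2 fold changes below 0 (median −0.22), as did 19 of the 32 tested genes whose promoter lacked it (median −0.08). The 6 include *Psmb5* and *Psmb6* of the beta ring, whose 7 genes were all below 0, and *Psme4* (−0.12, SE 0.17). A part of the motif in these values was not tested. These matches are a description of the sequence and were not tested as binding sites.

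In the 19S cap, the 6 ATPases that unfold substrates differed least, with log2 fold changes from −0.19 for *Psmc6* to 0.01 for *Psmc2*, and all 6 intervals within 1.5-fold. *Psmc2* had 101, 115 and 101 CPM in WT and 107, 112 and 100 CPM in KO, which overlapped fully (SE 0.13). *Psmc6* had 62.4, 71.3 and 63.5 CPM in WT and 64.5, 53.8 and 54.9 CPM in KO, with KO replicate 1 within the WT range (SE 0.14). Among the 11 other cap subunits, 10 intervals lay within 1.5-fold. The exception was *Psmd4*, a ubiquitin receptor of the cap, with 174, 225 and 152 CPM in WT and 153, 165 and 137 CPM in KO (−0.27, SE 0.18), where WT replicate 2 was far above the rest and the other mice overlapped. *Psmd12*, a structural subunit of the lid, was the single cap gene without overlap, with 98.5, 120 and 102 CPM in WT and 97.4, 93.6 and 91.3 CPM in KO (−0.18, SE 0.14). Without WT replicate 2 the value was −0.087 for *Psmd12*, −0.099 for *Psmd4* and −0.12 for *Psmc6*. At the other end, *Psmd2*, a scaffold of the base that docks shuttle factors, had 150.0, 161.4 and 136.3 CPM in WT and 142.5, 193.9 and 173.7 CPM in KO (0.19, SE 0.16), with KO replicate 1 inside the WT range. Its value was 0.084 without KO replicate 2 and 0.30 without KO replicate 1.

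The activators bind the core in place of the cap. *Psme1* and *Psme2* encode the PA28 ring known from antigen processing and lie 5911 bases apart on chromosome 14. *Psme1* had 76.1, 97.8 and 81.8 CPM in WT and 83.8, 94.3 and 82.2 CPM in KO (log2 fold change 0.03, SE 0.15), and *Psme2* had 91.5, 109.5 and 89.2 CPM in WT and 98.4, 112.2 and 114.6 CPM in KO (0.16, SE 0.15). Both overlapped between genotypes. With transcript length offsets the value of *Psme2* was 0.79 (DESeq2, Benjamini-Hochberg adjusted p = 0.33), while its TPM spread from 138 to 443 among the KO mice. *Psme4*, the activator PA200, had 34.4, 43.3 and 37.7 CPM in WT and 38.6, 38.8 and 29.1 CPM in KO (−0.12, SE 0.17). *Psme2b*, a near copy of *Psme2* on chromosome 11 with 78.4% of its 31-base words found in other genes as well, had 0 to 16 reads per mouse and remains uncertain (0.81, SE 0.95).

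The assembly chaperones, which bring the rings and the base together, had log2 fold changes on both sides of 0 (3 below and 4 above). *Psmg1*, a chaperone of the alpha ring, had 20.4, 30.9 and 23.4 CPM in WT and 24.2, 34.9 and 28.1 CPM in KO (0.22, SE 0.20), and leaving out single mice gave 0.069 (KO replicate 2), 0.090 (WT replicate 1), 0.34 (KO replicate 1) and 0.41 (WT replicate 2). *Psmd9*, a chaperone of the base, had 65.4, 63.1 and 48.5 CPM in WT and 44.9, 48.7 and 51.9 CPM in KO (−0.28, SE 0.16), where WT replicate 3 lay among the KO mice. Both overlapped between genotypes. The genes that did not pass the filter were *Psmb11*, the beta subunit of thymic epithelium, with 2, 8 and 3 reads in WT and 9, 3 and 5 reads in KO, and *Psmc3ip*, with 5, 10 and 20 reads in WT and 2, 1 and 4 reads in KO. *Psmb11* lies 3410 bases from *Psmb5* with no coding gene between them, although their levels are far apart.

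*Psmb10*, the one tested inducible subunit among the 48 genes, went the other way from the standard beta genes. It had 28.5, 23.5 and 23.2 CPM in WT and 24.4, 34.1 and 33.2 CPM in KO (log2 fold change 0.29, SE 0.18, edgeR with Benjamini-Hochberg adjusted p = 0.59), with KO replicate 1 inside the WT range. Its value was 0.43 without that mouse (edgeR, Benjamini-Hochberg adjusted p = 0.20), 0.20 without KO replicate 2, 0.22 without KO replicate 3, 0.20 with protein_coding transcripts alone and 0.17 with total counts. The other inducible subunits, outside the 48 genes, were higher in every KO mouse: *Psmb8* with 23.5, 28.8 and 30.4 CPM in WT and 60.6, 52.3 and 35.3 CPM in KO (0.84, SE 0.21), and *Psmb9* with 5.17, 13.1 and 6.95 CPM in WT and 23.2, 23.9 and 18.5 CPM in KO (1.38, SE 0.32). Neither passed in edgeR (Benjamini-Hochberg adjusted p = 0.19 and 0.17). Both passed in DESeq2 (adjusted p = 0.024 and 0.0034), and with length offsets *Psmb8* did not and *Psmb9* did (adjusted p = 0.060 and 0.045).

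Set against its standard counterpart in the same liver, with all transcripts counted, each inducible subunit took a larger share in all KO mice than in any WT mouse. Per transcript length (TPM), *Psmb8* stood at 14.1%, 13.5% and 18.7% of *Psmb5* in WT and at 41.9%, 35.1% and 23.1% in KO. *Psmb9* stood at 1.27%, 3.60% and 2.23% of *Psmb6* in WT and at 8.65%, 7.34% and 5.86% in KO. *Psmb10* stood at 53.8%, 42.4% and 41.3% of *Psmb7* in WT and at 62.6%, 65.3% and 66.1% in KO. The mean log2 ratio of CPM was higher in KO by 1.04, 1.67 and 0.42 for these pairs, each with an exact two-sided permutation p of 0.1, the smallest possible with 3 mice against 3. *Psmb8* was higher and *Psmb5* lower in every KO mouse, so the p of that pair followed from values already given. The TPM of *Psmb10* includes short transcripts, and 61.4% of its reads went to its protein_coding transcript. That transcript held 13.2 of the 37.8 TPM of *Psmb10* (mean of all mice), against 68.95 of 68.98 TPM for *Psmb7*. Counted on protein_coding transcripts alone, the mean percentage of *Psmb7* would thus be smaller than given above. On those transcripts *Psmb10* had 211 reads beside 950 of *Psmb7* in WT replicate 1, and 159 beside 753 in KO replicate 2. Its share in KO replicate 2 was thus below that in WT replicate 1, and the genotypes overlapped for this pair. Immune cells are rich in inducible subunits, and the lymphocyte and Kupffer cell marker sums given above overlapped between genotypes, with lymphocyte markers at 4.08 to 8.38 CPM in WT and 3.07 to 5.77 CPM in KO; their part in the ratio was not tested.

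**Figure D4:**
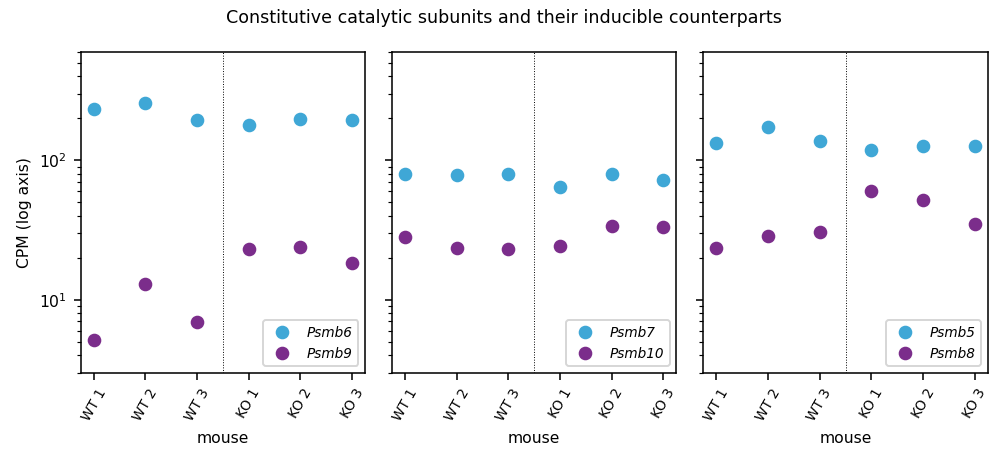
CPM (log axis) per mouse of the standard catalytic subunits (blue) and of the inducible subunits that replace them (purple). *Psmb8* and *Psmb9* lie higher in all 3 KO mice than in any WT mouse, and *Psmb10* does so in 2 of 3.

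The levels of the subunits differed more between genes than between genotypes. Over the 14 ring genes the mean TPM ran from 66.6 for *Psma2* to 329 for *Psma3*, and over the 17 cap genes from 36.1 for *Psmd14*, the deubiquitinase of the lid, to 132 for *Psmd4*. The median was 144 TPM in the rings and 81.6 TPM in the cap. Counting protein_coding transcripts alone, the ring ranged from 56.1 (*Psmb4*) to 287 TPM (*Psmb6*) and the cap from 15.4 (*Psmc6*) to 129 TPM (*Psmd4*). Summed over the rings, TPM was 2626, 2621 and 2314 in WT and 1956, 2318 and 2202 in KO, which overlapped by a narrow margin. Summed over the cap, it was 1444, 1454 and 1215 in WT and 1081, 1423 and 1301 in KO. The activators *Psme4* (5.44 TPM) and *Psme2b* (1.12 TPM), and *Psma8* (0.88 TPM), *Psmc3ip* (0.47 TPM) and *Psmb11* (0.09 TPM), were the lowest.

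**Figure D5:**
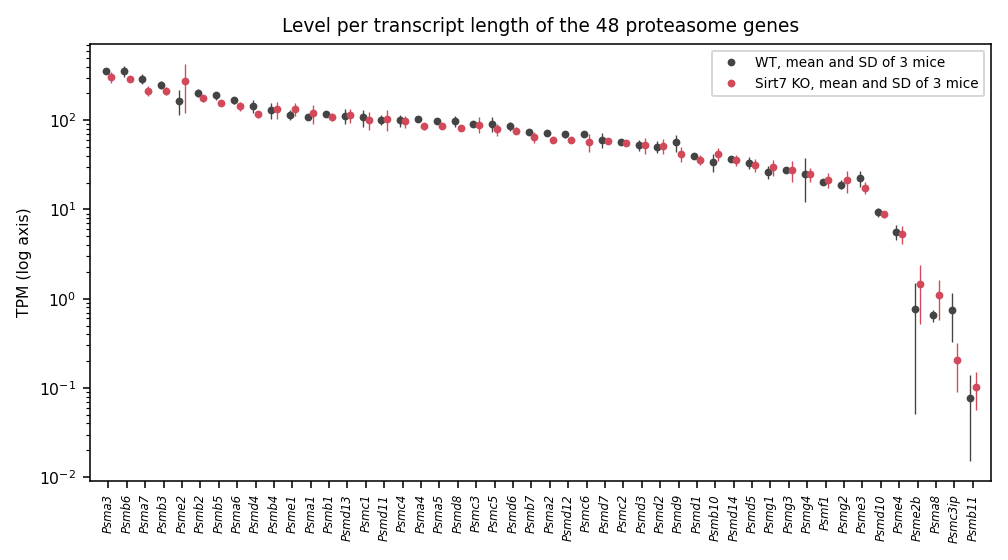
The level of each of the 48 genes per transcript length (TPM, log axis), as the mean and SD of 3 WT (grey) and 3 *Sirt7* KO mice (red), ordered by the mean of all 6 mice. The ring genes *Psma3*, *Psmb6*, *Psma7* and *Psmb3* are the highest, the SDs of the genotypes overlap or touch for most genes, and *Psme2* has the widest spread among the abundant genes.

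Of 44 genes with at least 50 reads in every mouse, 34 had at least 90% of their reads on protein_coding transcripts, and 9 had under 80%. Among 83 transcripts with at least 10% of their gene's reads in some mouse, 5 were counted as not overlapping between genotypes. Of the transcripts of all tested genes, 7.67% were so counted. The 5 include a tie, the main transcript of *Psmb7*, with 100% of its reads in every WT mouse and 99.3%, 100% and 100% in KO. Whether the share over all transcripts holds such ties was not checked. Of the 5, 1 differed by at least 5 percentage points, against 6.06%. This was *Psmd11-214*, the main transcript of a lid subunit, with 66.0%, 64.8% and 66.5% of *Psmd11* reads in WT and 57.3%, 56.2% and 63.7% in KO. Larger mean differences overlapped between genotypes, as for the main transcript of *Psme1*, with 68.1%, 59.8% and 89.3% of its reads in WT and 66.0%, 27.9% and 61.3% in KO. Reads that fit several isoforms are divided by estimation, so these shares carry an error that the files do not give.

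Genes that work with the proteasome but are outside the 48 were read from lists of 41 genes, of which 38 were tested, 3 were lower and 6 were higher at an unadjusted edgeR p under 0.05 (against 4.78% and 6.54% of all genes), and 0 were called. The NRF1 gene *Nfe2l1* had 47.5, 65.5 and 61.6 CPM in WT and 67.0, 49.9 and 56.4 CPM in KO (−0.01, SE 0.18), while *Mafk*, a small partner of this factor, was at 8.64, 7.44 and 10.6 CPM in WT and 12.6, 20.1 and 15.3 CPM in KO (0.85, SE 0.24, edgeR, adjusted p = 0.22). The more abundant partner *Mafg* went the other way, with 84.9, 108.7 and 82.3 CPM in WT and 53.0, 84.8 and 80.5 CPM in KO (−0.34, SE 0.20, overlapping). On chromosome 11, *Mafg* (bases 120625117 to 120633600) overlaps the end of the targeted gene *Sirt7* (bases 120618372 to 120625240). The part of the targeted locus in the value of *Mafg* was not tested. *Maff*, which did not pass the filter, had 14, 4 and 28 reads in WT and 4, 1 and 3 reads in KO. The assembly factor *Pomp* (0.24, SE 0.15) and the cap subunits *Adrm1* (−0.17, SE 0.16) and *Sem1* (−0.22, SE 0.20) overlapped between genotypes. Among proteins bound to the proteasome, the deubiquitinase *Uchl5* had 23.03, 24.1 and 25.1 CPM in WT and 18.96, 18.65 and 17.05 CPM in KO (−0.40, SE 0.14, edgeR, adjusted p = 0.33), and *Zfand5*, which stimulates proteolysis, had a value of −0.30 (SE 0.13). The shuttle factor *Ubqln4* had 25.7, 28.4 and 24.0 CPM in WT and 15.9, 17.8 and 20.1 CPM in KO (−0.54, SE 0.16, edgeR, adjusted p = 0.25). Among the interferon-induced genes listed, those higher at an unadjusted edgeR p under 0.05 included *Psmb8* and *Psmb9*, and *Tap1* (0.78, SE 0.26) and *Tapbp* (0.38, SE 0.13), which serve the loading of antigen peptides. From the same list, *B2m* (0.09, SE 0.24), *Irf1* (−0.08, SE 0.15) and *Nlrc5* (−0.06, SE 0.15) were not higher at that level. *Tap1* overlapped between genotypes, with 14.1 CPM in WT replicate 2 and 13.6 CPM in KO replicate 3.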

How the data were processed

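RNA-seq of 6 livers (3 WT, 3 *Sirt7* KO; groups from the sample labels) was used. The authors trimmed reads with Trim Galore 0.6.5 and quantified them with Salmon 1.2.1 on GRCm38 transcripts, per the labels. They deposited, per transcript and mouse, estimated counts, which are not normalized, and TPM, which Salmon scales to effective transcript length and to a fixed total. The annotation release is not given in the sources used here. Replicates were not pooled.

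Estimated counts were summed per gene of GENCODE M21 (139172 of 140992 transcripts matched with the same version, 619 with another, 1201 with none, which were left out) and rounded. Reads without a gene made up 0.30% to 0.49% per mouse. Genes were tested with edgeR 4.0.16 (R 4.3.3) by the quasi-likelihood test with TMM and the filterByExpr defaults (minimum count 10), genotype as the sole term, and Benjamini-Hochberg adjustment over 12524 genes. A call needed adjusted p under 0.05 and a fold change over 1.5. Single ratios were compared by exact permutation. TPM served for levels between genes. Words of 31 bases shared between genes were counted in the transcript sequences with Python 3.11.15. The fit was tested on simulated counts with known changes.

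Alternatives were RLE and total-count scaling, no filter, DESeq2 1.42.0 with and without length offsets, protein_coding transcripts alone, a replicate block, the list without *Psmc3ip* and leaving out each mouse; adding pseudogene reads and counting ring genes below 0 were added once the data had been seen. Replicate numbers come from the labels, which do not say whether they pair the mice. Same-numbered mice deviated with little correlation (0.07, 0.08 and −0.04), which cannot exclude a pairing, so the replicate block was kept as an alternative. Mice of 1 genotype were apart by more than sampling noise (chi-square per gene 16.9 or more) and were kept as separate samples.

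The genes, role groups, companion and marker lists were chosen with earlier results of these data known. Named with values were genes without overlap or at p under 0.05, the extremes of each role group, the catalytic subunits, *Psmb10*, *Psme1*, *Psme2*, genes below the filter, *Psmb8*, *Psmb9*, *Nfe2l1*, *Pomp*, *Adrm1*, *Sem1*, other companions at p under 0.05, and *Sirt7*. A companion that met this rule is not reported here. Depth covers counting error only.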

Additional observations from a re-analysis of the deposited data

How the results depend on the processing

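None of the 48 genes was called under any of the 15 alternatives. Over all genes, 633 of 27881 were called without a filter, 258 of 27881 with DESeq2 and 242 of 27881 with length offsets. It was 252 of 12921 without *Sirt7* KO replicate 1, 41 of 12524 with the replicate block and 0 to 2 genes under the others. Outside the 48 genes, *Psmb8* and *Psmb9* gained calls without a filter (edgeR, Benjamini-Hochberg adjusted p = 0.0014 and 7.5e-07) and in DESeq2, and *Psmb9* also with length offsets. The count of genes lower at an unadjusted p under 0.05 was 0 in the report, 6 with total counts, 1 without a filter (*Psmc3ip*), 1 with protein_coding transcripts alone (*Psmb4*) and 1 with DESeq2 and length offsets (*Psma7*), where 1 was higher (*Psme2*). Over all genes, 3.48% were lower without a filter and 4.58% with protein_coding transcripts alone. With length offsets 2.22% were lower and 3.15% higher. Leaving out each mouse gave 0 to 1 lower and 0 to 1 higher: *Psmd9* lower without WT replicate 3, and *Psma3* lower and *Psmb10* higher without *Sirt7* KO replicate 1, where 8.12% of all genes were lower and 8.97% higher, against 3.17% to 3.81% and 4.42% to 6.01% without another mouse. Total counts moved all genes, with a median of −0.11 and 7.93% lower and 4.15% higher, and the genes' median of −0.20 was −0.09 relative to it. With length offsets the median was −0.02 in all 48 genes and −0.02 in the 27881 genes fitted, with 12 of 14 ring genes below 0 (median −0.16). The count of ring genes was 13 under every other alternative. Leaving out mice gave medians of −0.16 to −0.04. The replicate block gave 0 genes lower and 0 higher and a median of −0.10, and 13 ring genes below 0. Among 35 named genes, 6 turned direction under some alternative, all of them without a call. With length offsets these were *Psmb4* (0.089), *Nfe2l1* (0.095) and *Sirt7* (0.81). *Psmc2* was −0.098 with total counts, −0.015 with protein_coding transcripts and −0.031 to 0.075 without single mice, and *Psme1* was −0.077, −0.11 and −0.055 to 0.14. Without single mice *Psme4* ranged from −0.19 to 0.0095 and *Nfe2l1* from −0.14 to 0.083. The causes were not tested. With 9994860 to 13424776 reads per mouse, genes such as *Psme2b* and *Psma8* could not be resolved.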
